A study of Mus musculus with 10 samples.

Results

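The genes of respiratory complexes III to V are described here through the p65 peaks that lie at their ends. The set holds 36 nuclear genes of the 21887 protein-coding genes on chromosomes 1 to 19, X and Y. It was chosen by function, as the subunits of complex III with cytochrome c (10 genes), complex IV (11 genes), the F1 head of complex V (5 genes) and the membrane part and stalk of complex V (10 genes). ATP synthase genes carry their older Atp5 symbols. Peaks within 3 kb of the left or right end of a gene's record in GRCm38.p6 were assigned to that gene, so a peak between neighbouring genes counted for both.

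The libraries came from RAW264.7 cells, a line of macrophage-like cells grown from a male mouse's tumour that Abelson leukaemia virus had induced, and of wild-type genotype. Cells were treated for 12 h with DMSO (the solvent), with DMSO plus LPS (lipopolysaccharide, which triggers the inflammatory response of macrophages), or with LPS plus Skatole (a product of tryptophan made by gut bacteria). Each group had 3 CUT&Tag libraries of 200000 cells, in which an antibody guides a transposase to the protein on DNA. The labels name a p65 antibody and the methods an antibody against phosphorylated p65, and a Blank library without primary antibody was not analysed here. Nothing states that the replicates were separate cultures, so a p-value below measures only the spread between these libraries. A single line that comes from 1 tumour limits how far the values stand for macrophages in general.

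Complex III passes electrons from ubiquinol to cytochrome c, and complex IV passes them on to oxygen. Both pump protons across the inner mitochondrial membrane, and complex V, the ATP synthase, lets the protons flow back and makes ATP from ADP. Activated macrophages are known to lower respiration and to rely on glycolysis. p65 is the transactivating subunit of NF-κB, which enters the nucleus after LPS and binds κB motifs at inflammatory genes. The groups let p65 binding at these genes be compared before and after LPS, and under LPS with and without skatole.

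The lists held 37551 to 43450 peaks with DMSO, 55637 to 63498 with LPS and 78136 to 80153 with LPS+Skatole. As a measure of depth, the genome background was taken as the lowest local background of a list, in fragments per position. It ranged from 1.09 to 1.399 with DMSO, 2.23 to 2.34 with LPS and 2.26 to 2.39 with LPS+Skatole, so weak peaks were easier to call in the treated groups. Of 8 macrophage identity genes, 7 had a peak in all 9 libraries, against 1 of 10 genes of other lineages. A summit count adds up 200000 cells, so fewer occupied cells and weaker occupancy per cell cannot be told apart.

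Nearly every member carried a p65 peak already in the solvent-treated cells. A peak lay at 31, 33 and 32 of the 36 members under DMSO, at 33, 35 and 33 under LPS, and at 34, 33 and 33 under LPS+Skatole. These were 88.9% ± 2.78 (SD, n = 3) of the members with DMSO, 93.5% ± 3.21 with LPS and 92.6% ± 1.60 with LPS+Skatole. Over all protein-coding genes the share was 50.1% ± 1.28, 55.4% ± 0.943 and 59.2% ± 0.1098. The members therefore lay 38.8, 38.2 and 33.4 percentage points above all genes. The members' shares overlapped between the groups, while those of all genes were higher from group to group without overlap. In all, 28 members (77.8%) had a peak in every library, 7 in some and 1 in none, against 40.5% of all genes with a peak in every library and 23.2% with none.

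**Figure D1:**
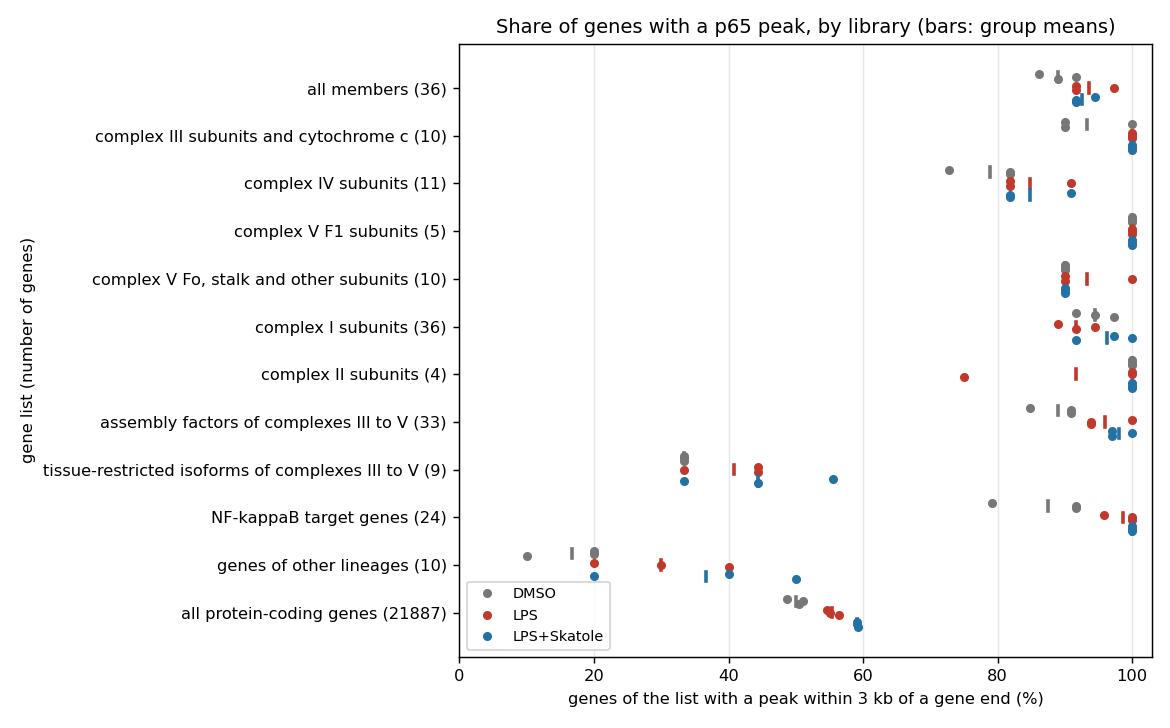
Share of the genes of each list with a peak within 3 kb of a gene end (x axis, percent), with 1 point per library and a bar at each group mean; the number of genes stands beside each list. Members of complexes III to V sit between 86.1% and 97.2% in every library, tissue-restricted isoforms of the same complexes and genes of other lineages far lower, and all protein-coding genes between 48.6% and 59.3%.

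The strength of a member's best peak was placed among all genes of the same library. The gene percentile is the share of protein-coding genes with a weaker best peak or none, by the deposited −log10 p, and a gene without a peak is at 0. The median gene percentile of the members was 81.2, 81.0 and 80.5 under DMSO, 80.4, 75.9 and 78.4 under LPS, and 77.9, 71.9 and 78.8 under LPS+Skatole. The group means were 80.9 ± 0.369, 78.2 ± 2.25 and 76.2 ± 3.77 (SD, n = 3). The lowest DMSO value lay above every LPS and LPS+Skatole value. LPS and LPS+Skatole values overlapped. The gap was 80.5 against 80.4 at its narrowest. Ranked within the peak list of each library instead, over the members with a peak, the median best peak stood at a list percentile (the share of a list's peaks that are weaker) of 89.9 ± 0.570 with DMSO, 90.3 ± 2.42 with LPS and 89.9 ± 3.25 with LPS+Skatole, and the groups overlapped. Over the 9 libraries the members' mean gene percentile had a median of 78.0, against 34.7 for all genes. It was above 90 for 7 members and below 50 for 5.

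Within the peak lists, the best peak of 14 to 19 members ranked above 90% of the peaks of its list. This was 38.9% to 52.8% of the members in the 9 libraries, against 16.0% to 23.0% of all protein-coding genes. The members' shares overlapped between the 3 groups.

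**Figure D2:**
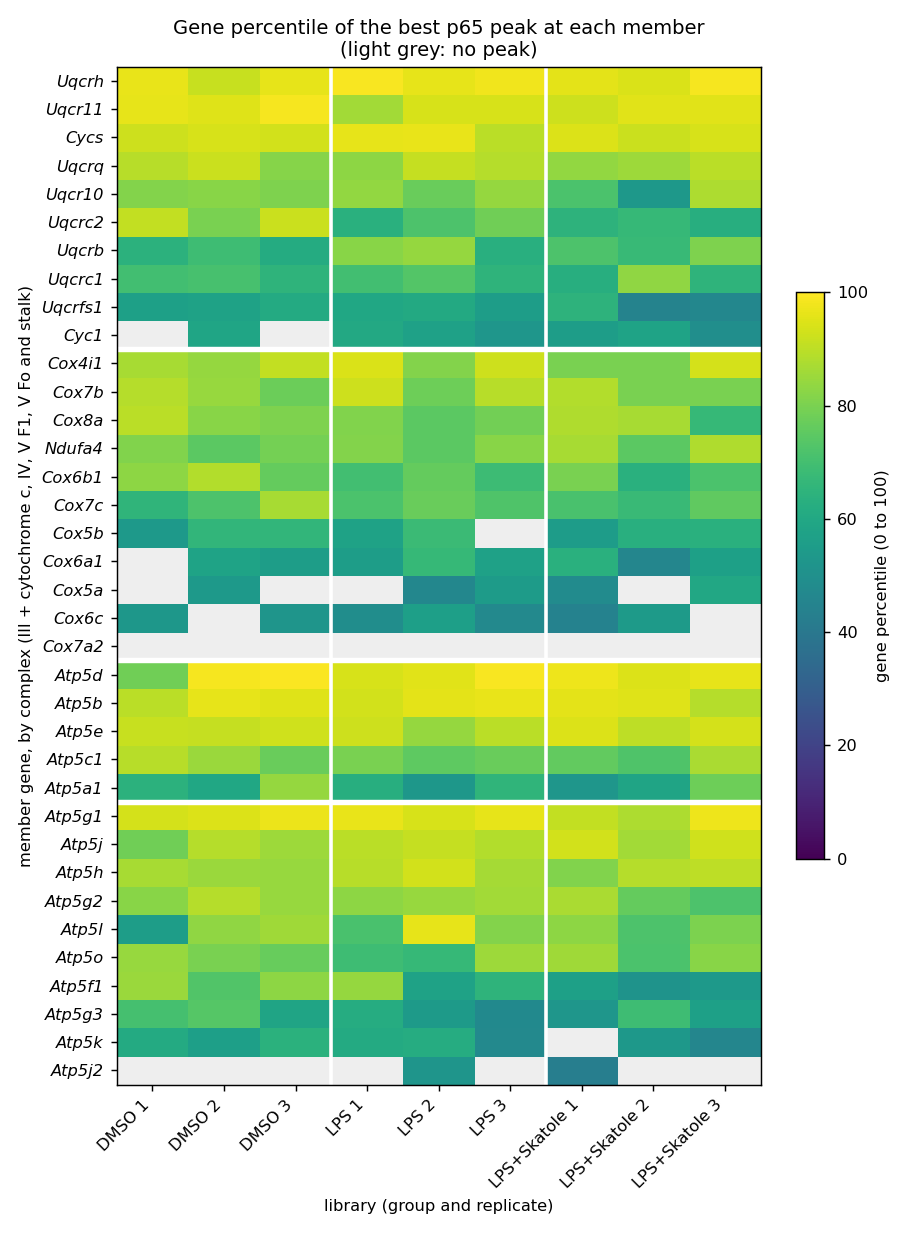
Gene percentile of the best peak (colour, 0 to 100) of each member (rows, by complex and then by mean) in each library (columns, by group); light grey marks no peak. Uqcrh, Uqcr11, Cycs, Atp5d, Atp5b and Atp5g1 are high in nearly every library, while Cox7a2 is empty and Atp5j2 has a peak in 2 libraries only.

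The upstream sequences of 8 members are shown because the best summits of most members lay close to the start site. The printed bases end at the start site, so summits inside a gene lie beyond them, as for Atp5e in 8 of 9 libraries. Those of Cox6a1 lay over 1 kb away. They are the member with the strongest peaks, those the study names as genes of complexes IV and V where a sequence was listed, cytochrome c and Atp5f1, whose gene percentiles did not overlap between LPS and LPS+Skatole, a difference that did not pass the adjusted test. Each runs 5′ to 3′ on the coding strand over the 250 bases before the start site, from RefSeq (GRCm38.p6, all on the minus strand). Capitals mark matches, on either strand, to the ETS motif CGGAAG, the NRF1 motif GCGCATGC, the CCAAT box CCAAT, the CRE motif TGACGTCA and the AP-1 motif TGANTCA.
Uqcrh (chr4:116075071-116075320): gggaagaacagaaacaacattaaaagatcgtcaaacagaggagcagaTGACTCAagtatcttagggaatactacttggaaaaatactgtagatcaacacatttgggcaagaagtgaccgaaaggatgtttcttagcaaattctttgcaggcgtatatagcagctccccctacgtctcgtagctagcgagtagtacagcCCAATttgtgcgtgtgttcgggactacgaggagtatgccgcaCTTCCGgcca
Atp5g1 (chr11:96075632-96075881): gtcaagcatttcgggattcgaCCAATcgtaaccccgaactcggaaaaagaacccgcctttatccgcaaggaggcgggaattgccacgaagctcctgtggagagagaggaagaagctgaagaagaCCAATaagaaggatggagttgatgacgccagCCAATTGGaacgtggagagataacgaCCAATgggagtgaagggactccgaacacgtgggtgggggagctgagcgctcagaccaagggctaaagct
Cycs (chr6:50566570-50566819): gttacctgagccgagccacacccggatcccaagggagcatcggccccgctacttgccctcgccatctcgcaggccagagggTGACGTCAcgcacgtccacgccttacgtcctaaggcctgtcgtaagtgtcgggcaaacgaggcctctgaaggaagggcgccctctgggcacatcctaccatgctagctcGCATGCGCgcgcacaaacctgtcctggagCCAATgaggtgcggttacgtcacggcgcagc
Atp5e (chr2:174464102-174464351): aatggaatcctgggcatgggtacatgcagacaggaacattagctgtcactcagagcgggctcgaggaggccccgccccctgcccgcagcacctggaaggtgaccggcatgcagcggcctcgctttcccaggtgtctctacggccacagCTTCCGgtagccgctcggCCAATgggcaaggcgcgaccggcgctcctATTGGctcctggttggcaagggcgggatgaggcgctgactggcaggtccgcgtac
Atp5f1 (chr3:105959264-105959513): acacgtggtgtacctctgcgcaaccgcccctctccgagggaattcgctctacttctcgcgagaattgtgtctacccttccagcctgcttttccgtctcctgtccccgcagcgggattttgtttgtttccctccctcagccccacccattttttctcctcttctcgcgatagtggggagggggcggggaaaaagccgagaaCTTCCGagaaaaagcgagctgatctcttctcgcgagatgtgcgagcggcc
Cox6a1 (chr5:115348959-115349208): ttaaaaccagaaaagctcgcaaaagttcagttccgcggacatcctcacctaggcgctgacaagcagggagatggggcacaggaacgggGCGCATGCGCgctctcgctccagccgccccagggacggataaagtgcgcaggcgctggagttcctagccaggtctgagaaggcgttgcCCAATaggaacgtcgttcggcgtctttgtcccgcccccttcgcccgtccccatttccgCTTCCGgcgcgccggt
Cox7c (chr13:86046796-86047045): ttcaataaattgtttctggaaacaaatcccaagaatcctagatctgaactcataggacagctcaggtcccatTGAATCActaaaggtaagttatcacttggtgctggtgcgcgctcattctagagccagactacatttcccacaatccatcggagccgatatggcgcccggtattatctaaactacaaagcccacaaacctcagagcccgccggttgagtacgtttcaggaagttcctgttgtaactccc
Atp5k (chr5:108434400-108434649): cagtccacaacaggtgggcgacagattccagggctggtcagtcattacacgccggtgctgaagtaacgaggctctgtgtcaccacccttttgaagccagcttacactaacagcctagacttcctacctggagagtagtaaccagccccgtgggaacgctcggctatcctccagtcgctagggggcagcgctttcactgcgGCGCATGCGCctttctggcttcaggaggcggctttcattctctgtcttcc

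Among all 29 members with a listed promoter, 12 (41.4%) held the ETS motif in these 250 bases, against 17.2% of 17492 promoters of protein-coding genes and 28.1% of the 7265 promoters whose genes had a peak in all 9 libraries. ETS factors such as GABP are known regulators of respiratory chain genes. The NRF1 motif, bound by nuclear respiratory factor 1, was in 5 members (17.2%), against 2.98% and 5.05%. In Cox6a1 and Atp5k it matched on both strands at overlapping positions. The CCAAT box was in 15 members (51.7%), against 36.5% and 38.3%, with 5 matches each in Atp5b and Atp5g1. The CRE motif was in Cycs and Uqcrfs1 (6.90%, against 1.98% and 2.92%), and AP-1 in 3 members (10.3%, against 6.18% and 3.90%). The ERR motif AAGGTCA was in 2 members (6.90%, against 3.55% and 2.53%) and the YY1 motif AAGATGGC in 0, against 1.498% and 2.28%. The TATA box TATAAA was in 1 member (3.45%, against 12.4% and 6.30%). The κB motif was in 1 member, Atp5d (3.45%), against 7.59% of all promoters and 8.81% of those with a peak in all 9 libraries. The members' median GC content was 54%, against 55.2% and 60%, and the median ratio of observed to expected CpG was 0.780, against 0.537 and 0.755. A match is a run of letters and not a measured site.

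**Figure D3:**
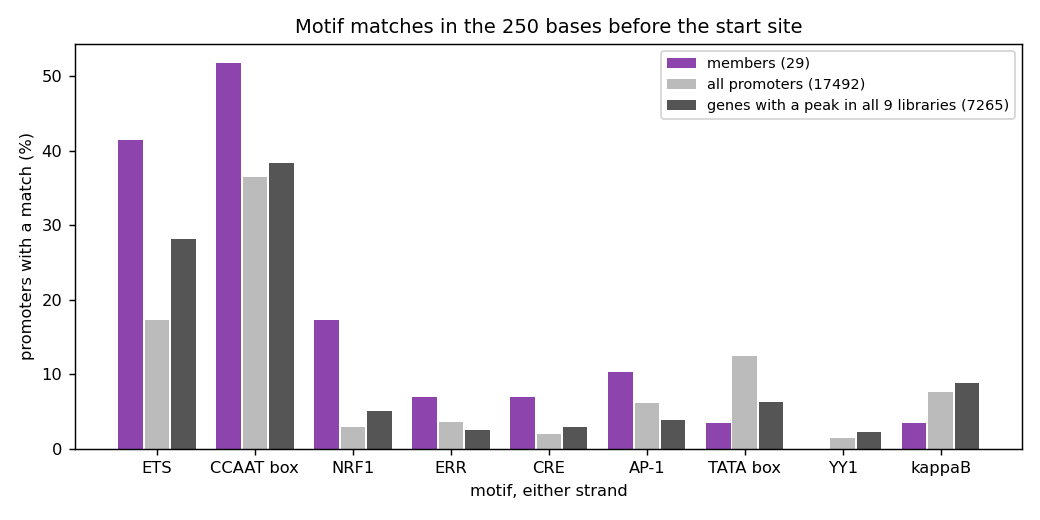
Percent of promoters (y axis) with a match to each motif (x axis) in the 250 bases before the start site, for 29 members, all 17492 promoters and 7265 promoters of genes with a peak in all 9 libraries. Members stand highest for ETS (41.4%), the CCAAT box (51.7%) and NRF1 (17.2%). They also stand highest for AP-1 (10.3%), CRE (6.90%) and ERR (6.90%), each in only 2 or 3 members. The κB and TATA box motifs were in 1 member each (3.45%) and YY1 in 0, too few to read as a difference.

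In each library a larger share of the members than of all genes had its best summit near the start site, a difference that was not tested. Among members with a listed start site and a peak, the summit of the best peak lay within 500 bp of the start in 17 to 21 of 25 to 28 members per library (65.4% to 84.0%). Over all genes the share was 49.0% to 58.9%. The peaks were also wider, with a median of 1062.5 to 1657 bp per library against 912 to 1061 bp over all genes. Peaks were often shared with a neighbour. In at least 1 library, the best peak of 21 of 35 members (60%) also lay in the window of another protein-coding gene. Over all genes with a peak the share was 40.4%. Genes with peaks in more libraries had more chances to be counted, so these shares are not like for like. A peak in every library was found for 77.8% of the members and 40.5% of all genes. No partner was shared in every library with a peak for Cyc1, Cox5a, Cox7b, Atp5a1, Atp5b, Atp5d, Atp5h and Atp5j2. Partners that were so shared included Lrrc41 for Uqcrh, Wdr77 for Atp5f1 and Prelid3b for Atp5e. Gabpa for Atp5j, Phf14 for Ndufa4 and Pde6b for Atp5k were others. At these genes the peak cannot be given to 1 gene.

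**Figure D4:**
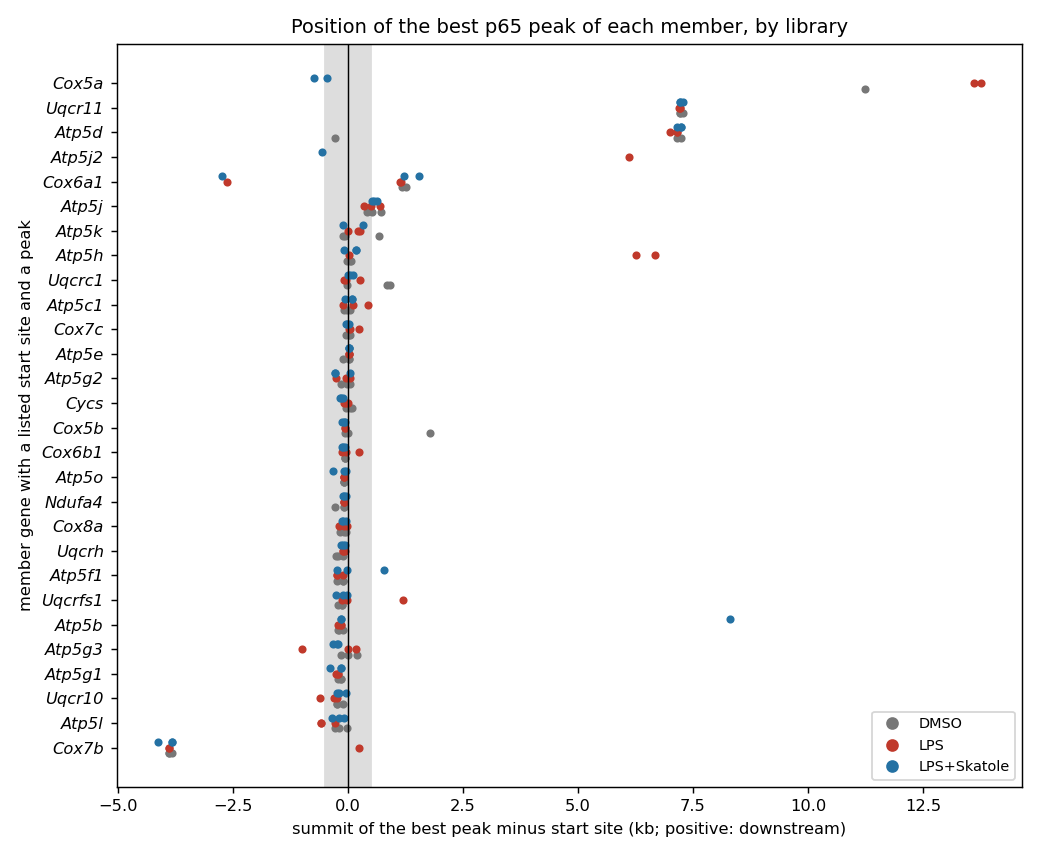
Distance from the start site to the summit of the best peak (x axis, kb, positive downstream) for each member with a listed start site and a peak (rows), with 1 point per library coloured by group; the grey band spans 500 bp on both sides. Of 28 members, 21 have their median distance within the band and 11 stay in it in every library with a peak, while most points of Uqcr11, Atp5d, Cox7b and Cox5a lie several kb away.

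Complex III and cytochrome c held 9 of 10 genes with a peak in all 9 libraries, and a median mean gene percentile of 76.3. Uqcrh, the hinge subunit that supports the contact of cytochrome c1 with cytochrome c, had the strongest peaks of all members with a mean gene percentile of 96.3 ± 2.27 (SD, n = 9). Its summit, shared with Lrrc41, held 79, 71 and 95 fragments with DMSO, 184, 122 and 162 with LPS, and 140, 125 and 193 with LPS+Skatole. The counts were higher in every treated library than in every DMSO library, as the genome background was. Divided by that background, the summit heights overlapped, at 72.5, 50.8 and 69.9 with DMSO, 80.2, 54.8 and 69.1 with LPS, and 59.8, 55.3 and 80.6 with LPS+Skatole. In DMSO replicate 1 the peak spanned chr4:116073136-116077590.

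Cycs encodes somatic cytochrome c, the electron carrier between complexes III and IV that also triggers apoptosis when released. Its summit counts were 58, 80 and 77 with DMSO, 123, 126 and 90 with LPS, and 128, 108 and 123 with LPS+Skatole. The gene percentile stayed between 89.5 and 96.6 in all 9 libraries, with overlap between groups. No other protein-coding gene end lay in reach of this peak, which covered chr6:50566035-50566972 in DMSO replicate 1.

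Uqcrc2, a core subunit of complex III, had lower peaks in the LPS libraries than in the DMSO libraries. Its gene percentile was 90.8, 79.96 and 92.1 with DMSO, 63.6, 72.2 and 78.2 with LPS, and 64.7, 66.9 and 62.8 with LPS+Skatole. Both treated groups lay below DMSO without overlap, and LPS and LPS+Skatole overlapped. By list percentile LPS and DMSO overlapped, at 71.6 to 90.1 and 88.4 to 96.3. LPS+Skatole stayed below DMSO on that rank, at 77.2 to 81.3. The summit counts were 67, 55 and 88 with DMSO, 41, 55 and 74 with LPS, and 52, 60 and 51 with LPS+Skatole, and so did not rise with the depth of the libraries. The height over genome background was 55.2 ± 13.8 in DMSO and 24.7 ± 6.85 in LPS, a log2 ratio of −1.16, where the median over all genes was −0.30. The peak covered the left end of the gene record (chr7:120635189-120659523), at chr7:120635028-120635607 in DMSO replicate 1. No other protein-coding gene shared it. The exact permutation test of LPS against DMSO gave p = 0.1, the smallest that 3 against 3 libraries allow, and an adjusted p of 0.806 over all genes tested. The exact joint test of the 3 groups gave p = 0.0107 and an adjusted p of 0.542.

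Uqcr11, a small subunit of complex III, had a mean gene percentile of 94.2 from a peak that was not at its start site. The summit lay 7186 to 7290 bp downstream of the start, at chr10:80397898-80401023 in DMSO replicate 1, in the window of Mbd3 as well. Its counts were 211, 245 and 255 with DMSO, 239, 227 and 340 with LPS, and 336, 380 and 292 with LPS+Skatole. The gene percentile was 96.4, 95.1 and 98.7 in DMSO and 86.2, 94.1 and 94.1 in LPS, without overlap, by exact permutation test p = 0.1 and adjusted p = 0.806. With a window of 1 kb the gene had a peak in 3 libraries only and the difference turned to 35.8. The groups overlapped by list percentile, at 98.0 to 99.4 with DMSO and 94.0 to 98.1 with LPS. They also overlapped after thinning to an equal genome background and when the best peak was chosen by fold. Without LPS replicate 1 the difference was −2.64. At its start site a peak was called in LPS replicates 1 and 3 and LPS+Skatole replicate 1, with 77, 67 and 22 fragments.

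Cyc1, the cytochrome c1 subunit, was the one complex III gene without a peak in all libraries. Its counts were 45 in DMSO replicate 2 and none called in the other two, then 68, 33 and 59 in LPS and 71, 41 and 59 in LPS+Skatole libraries. The 41 of LPS+Skatole replicate 2 came from a second peak, and at the region of the other libraries it held 56. Its gene percentile was 49.5 to 60.3 where a peak was called. The DMSO libraries were the shallower ones, and a missing peak says only that none passed the threshold at that depth. The other complex III genes (Uqcrc1, Uqcrfs1, Uqcrb, Uqcrq and Uqcr10) had peaks in all 9 libraries with mean gene percentiles from 56.4 for Uqcrfs1 to 87.2 for Uqcrq.

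Of the 4 parts, complex IV had the smallest share of genes with a peak in all 9 libraries, 6 of 11 (54.5%). Its median mean gene percentile was 73.5. Shares per group were 78.8% ± 5.25 with DMSO, 84.8% ± 5.25 with LPS and 84.8% ± 5.25 with LPS+Skatole (SD, n = 3), and overlapped. The study names Cox6c, Cox7c and Cox6a1, which encode small subunits of cytochrome c oxidase. It names them, and Atp5k, Atp5e and Atp5g1 of complex V, for higher RNA with LPS plus skatole than with LPS. RNA is not measured in the libraries described here.

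Cox7c had a peak over its start site in all 9 libraries. Its counts were 19, 32 and 56 with DMSO, 42, 50 and 47 with LPS, and 50, 44 and 60 with LPS+Skatole. DMSO held the lowest count, and its highest, 56, lay above every LPS count and within the range of LPS+Skatole. The gene percentile overlapped between all groups (65.4 to 87.0 with DMSO, 71.8 to 77.1 with LPS and 68.0 to 75.8 with LPS+Skatole). The LPS+Skatole minus LPS difference was −2.10 (exact permutation p = 0.4, adjusted p = 1).

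Cox6a1 had a weak peak away from its start site. The summit counts were 20 and 17 in DMSO replicates 2 and 3 with no peak in replicate 1, then 26, 40 and 30 in LPS and 44, 19 and 35 in LPS+Skatole libraries. Its gene percentile was 45.8 to 66.8 where a peak was called. In 6 libraries the summit lay 1132 to 1551 bp inside the gene, and in LPS replicate 1 and LPS+Skatole replicate 3 it lay upstream, at −2621 and −2746 bp. These are different peaks, so their counts do not follow 1 site.

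Cox6c was the weakest of the 3, with 9 and 15 fragments in DMSO replicates 1 and 3, then 18, 26 and 15 with LPS and 17 and 29 in LPS+Skatole replicates 1 and 2. DMSO replicate 2 and LPS+Skatole replicate 3 had no peak. Most of these peaks lay low in their lists, at list percentiles of 9.97 to 24.5, and those of LPS replicate 2 and LPS+Skatole replicate 2 at 57.2 and 61.2. At −log10 p of at least 10 only 2 libraries kept a peak. The difference in gene percentile between LPS+Skatole and LPS was −17.7 with overlap (exact permutation p = 0.4, adjusted p = 1).

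Cox5a and Cox7a2 depended on where the gene was taken to start. Cox5a had a peak at its record ends in 5 libraries, with 19 fragments in DMSO replicate 2, 19 and 32 in LPS replicates 2 and 3, and 87 and 63 in LPS+Skatole replicates 1 and 3. These best peaks lay in 3 different regions, 1 for each group, so they do not follow 1 site. The region of DMSO replicate 2 also held a weaker peak in LPS+Skatole replicate 1, with 24 fragments. Its listed start site lies 3904 bp inside the record. In a window around that site 8 libraries had a peak, with 27, 50 and 30 fragments with DMSO, 50 and 38 in LPS replicates 1 and 2, and 87, 110 and 63 with LPS+Skatole. Cox7a2, the widely expressed form of subunit VIIa, had no peak at either record end. Its listed start site lies 11569 bp inside the record, and there all 9 libraries had a peak, with 39, 32 and 42 fragments with DMSO, 56, 29 and 77 with LPS, and 81, 77 and 48 with LPS+Skatole. So the single member without a peak had one at its start site in every library.

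Cox5b, a zinc-binding nuclear subunit, lacked a peak in LPS replicate 3 only, and had 10, 42 and 56 fragments with DMSO, 62 and 84 in LPS replicates 1 and 2, and 68, 85 and 92 with LPS+Skatole. The DMSO replicate 1 summit lay 1783 bp inside the gene and the others near the start. The remaining complex IV genes, Cox4i1, Cox6b1, Cox7b, Cox8a and Ndufa4 (once assigned to complex I), had peaks in all libraries and mean gene percentiles from 75.4 for Cox6b1 to 87.0 for Cox4i1. For Cox7b the best summit lay upstream in 8 libraries, at −4133 to −3822 bp from the start, and in some of them was shared with Magt1.

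The F1 head of complex V, which makes ATP, had peaks at all 5 genes in all 9 libraries and the highest median of the parts, 91.1. Atp5b, the catalytic beta subunit, had 56, 108 and 97 fragments with DMSO, 111, 129 and 154 with LPS, and 154, 201 and 109 with LPS+Skatole. Its gene percentile was 88.8 to 96.7 with overlap between groups. In LPS+Skatole replicate 2 the best peak was a different one, 8301 bp downstream near Baz2a, and the start-site peak of that library held 133 fragments.

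Atp5d, the delta subunit of the central stalk, had a mean gene percentile of 94.8, but its best peak lay 6996 to 7229 bp downstream in 8 libraries, and in part lay in the windows of Cbarp or Midn. At the listed start site the counts were 68, 73 and 67 with DMSO, 94, 72 and 98 with LPS, and 115, 142 and 104 with LPS+Skatole. These counts are not scaled for depth. DMSO replicate 1 is the library whose best peak was the start-site one, with gene percentile 78.4.

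Atp5e, the epsilon subunit of F1 that the study names, shared its peak with Prelid3b. The summit lay 21 bp inside the gene in 7 libraries and held 56, 69 and 75 fragments with DMSO, 95, 65 and 90 with LPS, and 129, 99 and 121 with LPS+Skatole. Over genome background this was 51.4, 49.3 and 55.2 with DMSO, 41.4, 29.2 and 38.4 with LPS, and 55.1, 43.8 and 50.5 with LPS+Skatole. On this scale LPS lay below both other groups without overlap. On the scale of gene percentiles the LPS and LPS+Skatole libraries overlapped, at 84.3 to 92.5 and 90.04 to 94.8 (exact permutation p = 0.2, adjusted p = 1). Atp5c1 and Atp5a1, the gamma and alpha subunits, had mean gene percentiles of 79.9 and 64.2.

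The membrane part and stalk of complex V had 8 of 10 genes with a peak in all 9 libraries and a median mean gene percentile of 78.4. Atp5g1, 1 of the genes for the c-ring subunit that the study names, had 83, 114 and 137 fragments with DMSO, 172, 138 and 181 with LPS, and 140, 156 and 221 with LPS+Skatole. The treated libraries were all above the DMSO libraries in count, as they were in genome background. The gene percentile was 93.4, 94.7 and 97.1 with DMSO, 96.8, 93.9 and 96.4 with LPS, and 90.8, 87.5 and 97.5 with LPS+Skatole, with overlap in each comparison. LPS+Skatole differed from LPS by −3.76 (exact permutation p = 0.4, adjusted p = 1). The other c-ring genes, Atp5g2 and Atp5g3, had mean gene percentiles of 82.8 and 60.5.

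Atp5f1, the b subunit of the outer stalk, had lower gene percentiles in LPS+Skatole than in LPS libraries. The values were 85.1, 72.8 and 83.1 with DMSO, 84.3, 57.5 and 65.1 with LPS, and 57.0, 51.2 and 54.1 with LPS+Skatole. LPS+Skatole lay below both other groups without overlap, while DMSO and LPS overlapped. By list percentile LPS+Skatole overlapped with LPS, at 51.0 to 66.9 and 60.3 to 92.9. The summit counts were 84, 105 and 98 with DMSO, 141, 99 and 132 with LPS, and 76, 96 and 32 with LPS+Skatole. The height over genome background was 74.8 ± 2.5 with DMSO, 54.1 ± 8.7 with LPS and 29.4 ± 14.8 with LPS+Skatole, a log2 ratio of −0.88 for LPS+Skatole against LPS. The test of LPS+Skatole against LPS gave an exact permutation p of 0.1 and an adjusted p of 1. The exact joint test gave p = 0.0464 and an adjusted p of 0.594.

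The local background at this peak varied too, at 9.19, 24.1 and 11.4 fragments per position with DMSO, 19.1, 36.9 and 39.9 with LPS, and 19.5, 38.7 and 4.03 with LPS+Skatole. Its part in the difference was not tested. In LPS+Skatole replicate 3 the best peak was a smaller one 786 bp inside the gene. The groups overlapped again with a window of 1 kb (difference −12.5), around the start site only (−10.8), after thinning to an equal genome background (−15.0) and when the best peak was chosen by fold (−3.15). Without LPS replicate 1 the difference was −7.21, and at equal list length −31.9. The peak was shared with Wdr77 in all libraries and lay at chr3:105958722-105959925 in DMSO replicate 1.

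Atp5k, the e subunit that the study names, had 20, 20 and 28 fragments with DMSO, 35, 36 and 20 with LPS, and 30 and 22 in LPS+Skatole replicates 2 and 3, with no peak in replicate 1. Its gene percentile was 61.2, 56.6 and 64.0 with DMSO, 61.3, 61.7 and 46.9 with LPS, and 0, 53.2 and 46.1 with LPS+Skatole. LPS+Skatole lay below DMSO without overlap (exact permutation p = 0.1, adjusted p = 0.689) and overlapped with LPS (p = 0.2, exact permutation test, adjusted p = 1). By list percentile Atp5k overlapped between DMSO, at 45.9 to 67.1, and the LPS+Skatole libraries with a peak, at 57.0 and 31.1. The lists differ in length, and any part of this in the lower gene percentile was not tested. Atp5j2, the f subunit, had a peak in LPS replicate 2 and LPS+Skatole replicate 1 only, with 26 and 24 fragments in 2 different regions.

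For Atp5h, the d subunit, the best peak changed place. In LPS replicates 2 and 3 it lay 6263 and 6675 bp downstream with 280 and 274 fragments, and at the start site the counts were 51, 66 and 58 with DMSO, 94, 84 and 90 with LPS, and 89, 107 and 118 with LPS+Skatole. Atp5j, Atp5l and Atp5o had peaks in all libraries with mean gene percentiles of 88.2, 78.9 and 78.0.

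**Figure D5:**
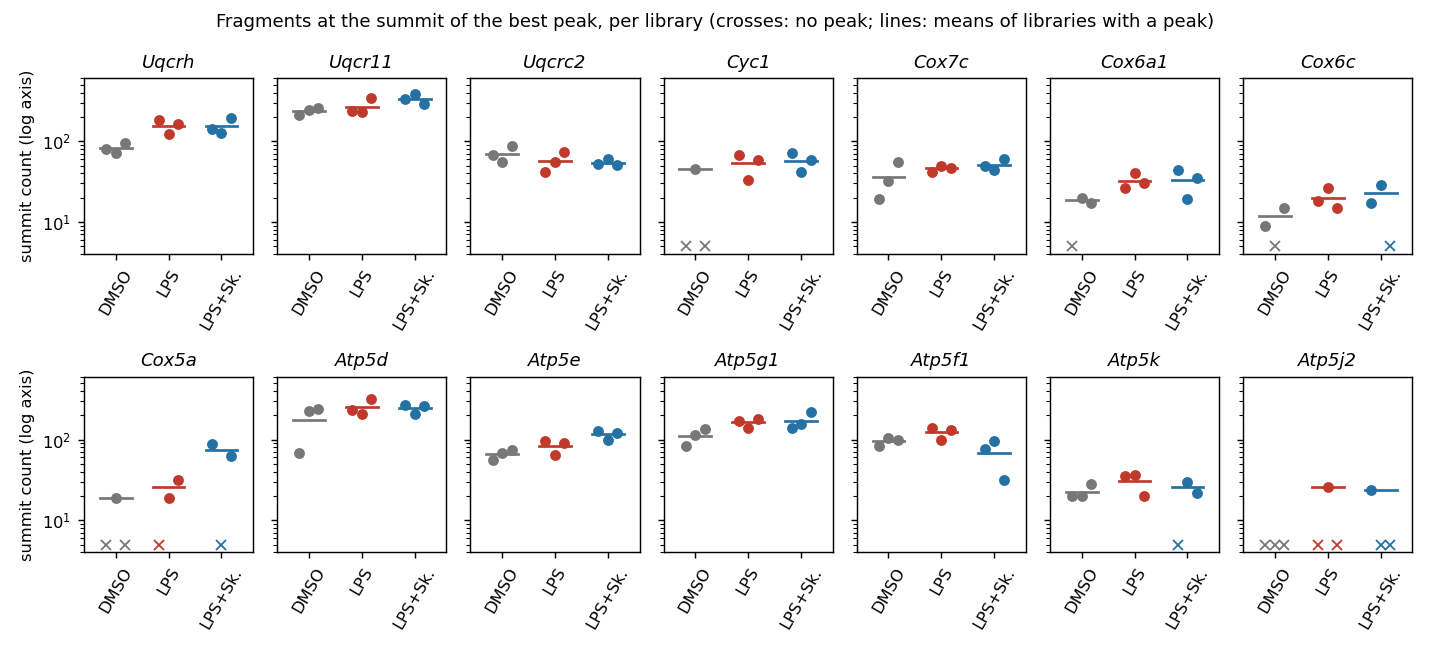
Fragments at the summit of the best peak (y axis, log scale) of 14 members in each library, with 1 point per library by group (x axis), lines at the means of the libraries with a peak and crosses at the foot where no peak was called. Counts in LPS and LPS+Skatole lie at or above DMSO for most members, as depth does, whereas those of Uqcrc2 do not rise and the mean of Atp5f1 is lowest in LPS+Skatole, where its counts overlap those of DMSO.

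Counted over the members, few differed between groups. Of 35 members with a peak, 0 had a higher gene percentile in every LPS than in every DMSO library, against 6.7% of 15040 genes tested, and 2 (Uqcrc2 and Uqcr11) a lower one, against 5.7%. Between LPS+Skatole and LPS, 0 were higher, against 4.97% of 16281 genes, and 1 (Atp5f1) was lower, against 4.88%. Between LPS+Skatole and DMSO, 0 were higher, against 8.19% of 16074 genes, and 3 (Uqcrc2, Atp5f1 and Atp5k) were lower, against 6.32%. The joint test gave an unadjusted p under 0.05 for 2 members (Uqcrc2 and Atp5f1), against 7.82% of 16800 genes. After Benjamini-Hochberg adjustment of these exact permutation tests 0 of 16800 genes passed 0.05, and the smallest adjusted p was 0.455. The smallest p the joint test can give is 0.00357. The comparisons share libraries and are not independent of each other. By list percentile the picture differed. LPS and DMSO overlapped for Uqcrc2 and Uqcr11, while Uqcrh, Atp5j and Atp5h were higher in every LPS than in every DMSO library. So was Cox6a1 among the libraries with a peak, though its value in LPS replicate 1 came from a different peak. Over all genes with a peak the median list percentile was higher with LPS too, at 84.3 ± 0.713 against 82.7 ± 0.688 with DMSO (SD, n = 3). On the same rank LPS+Skatole overlapped with LPS for Atp5f1 and with DMSO for Atp5k. No share over all genes is given for list percentiles, and these differences were not tested.

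The counts by gene percentile turned on single libraries, and with 1 library fewer the shares of all genes without overlap were larger too. For higher values in LPS than in DMSO the count became 2 without DMSO replicate 1 or 2 (10.5% and 11.3% of all genes tested), 5 without LPS replicate 2 (11.9%) and 4 without LPS replicate 3 (11.9%). For lower values it became 6 without DMSO replicate 3 (10.1%) and 7 without LPS replicate 1 (9.48%). These 6 and 7 were 17.1% and 20% of the 35 members tested. For lower values in LPS+Skatole than in LPS it became 2 without LPS replicate 1 or 2 (9.12% and 9.31%) and 4 without LPS replicate 3 (9.03%). It became 3 without LPS+Skatole replicate 1 or 2 (9.37% and 8.99%) and 6 without replicate 3 (9.37%). For higher values it became 1 without LPS replicate 1 or 3 (8.86% and 8.59%), 1 without LPS+Skatole replicate 1 or 3 (10.3% and 10.5%), and 3 without LPS+Skatole replicate 2 (10.5%). Fewer libraries make it easier for 2 groups not to overlap.

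Summit height over genome background gave another count. In LPS against DMSO 10 members were lower (Uqcrc2, Uqcr10, Uqcr11, Cox6b1, Cox8a, Atp5c1, Atp5e, Atp5f1, Atp5g2 and Atp5g3), against 18.1% of all genes tested, and 0 were higher, against 3.4%. In LPS+Skatole against LPS 1 was higher (Atp5e), against 12.1%, and 1 was lower (Atp5f1), against 1.9%. On this scale the median over all genes shifted as well. The median log2 ratio of LPS to DMSO was −0.38 over the 29 members with a peak in all 6 libraries and −0.30 over all genes. For LPS+Skatole to LPS it was 0.12 over 30 members and 0.18 over all genes, and for LPS+Skatole to DMSO −0.17 over 29 members and −0.14.

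Peaks at the members were merged over the libraries into 119 regions. Of these, 33 (27.7%) were present in all 9 libraries and 55 (46.2%) in a single library, against 17.4% and 53.3% of 44245 regions built in the same way at all protein-coding genes. The regions found in all 9 libraries lay at 28 members. Built from summits closer than 250 bp, the members' regions numbered 182, of which 23 at 22 members were in all 9 libraries and 108 in a single one. Regions present in every DMSO library and in 0 LPS libraries numbered 0 (0.0814% of all regions), as did those present in every DMSO and 0 LPS+Skatole libraries (0.108%) and in every LPS and 0 LPS+Skatole libraries (0.158%). In the other direction, where the lists are longer, 2 regions were present in every LPS+Skatole library and in 0 LPS libraries, against 0.499% of all regions, and with regions built from summits it was 1. The first was near Ndufa4 (chr6:11900389-11901801), with 20, 16 and 55 fragments and 12 in 1 DMSO library. The second was near Atp5j (chr16:84836820-84838131), with 11, 11 and 22. Beside it, chr16:84838251-84839105 had a peak in all 3 LPS libraries (26, 18 and 21 fragments), 0 DMSO libraries and 1 LPS+Skatole library. It was the 1 region gained with LPS over DMSO, against 1.03% of all regions, and 1 region was gained with LPS+Skatole over DMSO, the first near Atp5j, against 1.66%. With regions built from summits these counts were 1 and 0. The mean list percentile of these peaks was 54.3 for Ndufa4 and 15.3 for the first Atp5j region with LPS+Skatole, and 51.9 for the second Atp5j region with LPS.

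Related gene lists give the setting. The 36 subunits of complex I had a peak in all 9 libraries for 30 genes and a median mean gene percentile of 76.7, from Ndufv3 at 96.0 to Ndufb4 at 27.7. The 4 subunits of complex II had a median of 68.7. The 33 assembly factors of complexes III to V, which build the complexes but are not part of them, had 26 genes with a peak in all 9 libraries and a median of 68.9. Cox14 (91.1) and Bcs1l (90.7) stood highest and Coa5 (16.0) lowest. In contrast, 9 isoforms of the same complexes that are restricted to muscle, testis, lung or other tissues had 3 genes with a peak in all libraries, 3 with none and a median of 9.61. The 24 NF-κB target genes had 19 genes in all 9 libraries and a median of 77.4, close to the members' 78.0.

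Group medians of the NF-κB targets serve as a reference for an LPS response. For these genes the median gene percentile was 71.5 ± 3.17 with DMSO, 84.3 ± 0.503 with LPS and 82.2 ± 2.37 with LPS+Skatole (SD, n = 3), with Traf1 and Icam1 highest. For the members it was 80.9, 78.2 and 76.2, as given above. The LPS minus DMSO difference was 12.9 for the targets and −2.68 for the members, and the LPS+Skatole minus LPS difference was −2.12 and −2.04. The rise of the targets with LPS depended on the scale. Their median summit height over genome background was 51.7 ± 6.61 with DMSO, 48.0 ± 4.62 with LPS and 52.6 ± 4.70 with LPS+Skatole. For the members it was 44.4 ± 2.16, 33.7 ± 4.60 and 36.6 ± 2.62, and for all genes 36.2 ± 0.490, 26.8 ± 0.438 and 29.0 ± 0.535. These are descriptions of lists, and the difference between the lists was not tested.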

How the data were processed

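Peaks had been called by the authors in each CUT&Tag library separately and deposited as 1 narrowPeak list per library. The submitters' processing notes name mm10, fastp 0.20.1, HISAT2 2.1.0 and StringTie 2.0 without roles. The peak caller, its control and the handling of duplicates and of reads with several matches are not given in the sources used here. Processed copies of respiratory genes elsewhere in the genome can share reads, so peaks within transcribed sequence are uncertain.

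Per the values of the deposited lists, the score is a whole-number form of the −log10 p, the fold is a ratio of summit to local background, and the remaining columns are the −log10 p, the −log10 q and the summit offset set by the authors. Every list ended just above a −log10 p of 5. Counts of fragments at summits are not in the lists. They were solved from the deposited fold, taken as (count + 1)/(background + 1), and the −log10 p, taken as a Poisson tail. They came out within 0.01 of a whole number for 99.9858% to 99.9936% of peaks. Intervals and p-values cover neither duplicates nor binding without antibody.

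Gene ends and promoters came from RefSeq tables of GRCm38.p6 (1 of the 36 members, Atp5f1, matched by a synonym and the others by symbol), which give no exons. A promoter entry was found for 29 members. The others were Uqcrc2, Uqcrb, Uqcrq, Cyc1, Cox4i1, Cox6c and Atp5a1. In 424 cases a peak lay outside chromosomes 1 to 19, X and Y and was left out. The best peak was that of highest −log10 p. Alternatives to the window, the list length, the threshold, depth, the ranking and the set of libraries were run. Pairs of groups were tested gene by gene with two-sided exact permutation tests, and the 3 groups with a joint exact permutation test over 280 divisions, adjusted over all genes with a peak. Scripts were tested on simulated data. Python 3.11.15, numpy 2.4.6, pandas 2.3.3, scipy 1.17.1 and matplotlib 3.10.9 were used.

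Named members were those with a peak in fewer than 9 libraries, the 5 highest and 5 lowest by mean gene percentile, those without overlap between LPS and DMSO or LPS+Skatole and LPS, and the 6 that the study names. Others are named where a count or a best peak turned on them, chosen after their values were seen. The members and lists were chosen with earlier results of these data known.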

Additional observations from a re-analysis of the deposited data

How the results depend on the processing

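Of 183 recomputed values of the main results, 118 stayed within the spread between libraries (or, for counts, within 1.5 times) and 65 moved. The members' share stayed 30.9 to 45.5 percentage points above that of all genes under every alternative run. Some peaks were weak: at −log10 p of at least 10, Cox6c kept a peak in 2 of 7 libraries and Atp5j2 in 1 of 2. With a window of 1 kb the share was 83.3%, 87.0% and 85.2% in DMSO, LPS and LPS+Skatole (35.3 points above all genes in the last), the median gene percentile in DMSO and LPS was 78.4 and 75.6, and the lower members numbered 1 (LPS against DMSO) and 0 (LPS+Skatole against LPS). With the summit in the window the share was 88.9% in LPS+Skatole, 30.9 points above all genes (37.0 in DMSO), the medians were 76.5, 73.5 and 72.1, and 1 member was lower in LPS. Around the start site only, over 29 members, the share was 92.0% in DMSO and 94.3% in LPS+Skatole, 45.5, 42.3 and 40.8 points above all genes, the DMSO median was 82.3, LPS minus DMSO was 1.15 points, and the lower members numbered 0 and 0. At equal list length the share was 88.9% in LPS and 84.3% in LPS+Skatole (35.6 points above all genes), and the differences were 0 (LPS minus DMSO) and −4.63 points (LPS+Skatole minus LPS). At −log10 p of at least 10 the shares were 84.3%, 88.9% and 87.0%. After thinning to an equal genome background the LPS+Skatole share was 88.9%, the DMSO median 80.4, 2 members were higher in LPS than in DMSO (Uqcrb and Atp5h), the 2 lower ones were Uqcrc2 and Cox6b1, and 2 were lower in LPS+Skatole than in LPS (Cyc1 and Atp5k). With the best peak chosen by fold the medians were 75.8, 72.5 and 70.3, and 0 members were lower in LPS+Skatole than in LPS. By height the members lower in LPS than in DMSO numbered 10, and 1 was higher in LPS+Skatole than in LPS. Regions built from summits closer than 250 bp numbered 182 in place of 119, with 108 in place of 55 in a single library and 23 in place of 33 in all 9. With windows around gene ends or start sites, an alternative chosen after seeing the data, the shares were 93.5%, 97.2% and 96.3% (42.8 points above all genes in DMSO and 36.5 in LPS+Skatole), and no count of higher or lower members moved.

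With 1 library left out, the members higher in LPS than in DMSO numbered 0 to 5 and those lower 2 to 7, and between LPS+Skatole and LPS 0 to 3 were higher and 2 to 6 lower. The Uqcr11 difference between LPS and DMSO turned to 35.8 with a 1 kb window, 31.5 with the summit in the window and 40.4 around the start site, since the distant peak then dropped out. The gene percentile of Uqcrc2 stayed lower in every LPS than in every DMSO library under the 7 alternatives to window, list and ranking run for it. Uqcrc2 has no listed start site, so the window around start sites was not run. By list percentile, LPS and DMSO overlapped for Uqcrc2 and Uqcr11, as did LPS+Skatole and LPS for Atp5f1. Same-numbered libraries shared no detectable deviation (correlations −0.00124 to 0.00888 over 9 pairs), so the main tests left the libraries unpaired. Such correlations cannot tell whether same-numbered libraries were handled together. With a replicate block the differences in share were 4.63 and −0.926 points, and Uqcrc2, Uqcr11 and Atp5f1 each gave p = 0.25 by exact sign-flip test, the smallest it allows.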
